A study of Mus musculus with 8 samples.

Results

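The 10 imprinted growth genes H19, Igf2, Igf2r, Grb10, Cdkn1c, Dlk1, Meg3, Plagl1, Peg3 and Mest were followed in mouse mesenchymal stem cells (MSCs) kept at 2% oxygen (hypoxia) or at 21% oxygen (normoxia). They were found by symbol among the 53465 gene identifiers of the count table, and all 10 had enough counts to be tested. The cells came from the bones of male C57BL/6N mice aged 3 to 5 months and were purified by flow cytometry on day 12 as CD45-/TER-119-/CD140a+/Sca-1+ cells, as the labels and the study's methods describe. Per the methods, bone fragments and cells grew at 2% oxygen until the sort, and the sorted population was then divided and kept for a week at either level. The labels can also be read as both oxygen levels applied before the sort, and the study's own descriptions differ on the day of the sort. The sources give no genetic change or added agent for any sample, and the cells were an outgrowth from bone in culture and not the cells as they are in the animal. There were 4 hypoxia and 4 normoxia samples, numbered 1 to 4 in each group. The genes were selected on their log2 changes between these oxygen levels, so their changes are given as a description. Where a gene of the 10 is said to pass the threshold of the fit over all genes, this describes the contrast it was selected on and is no independent test.

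Imprinted genes are read from only one parental copy. In most tissues the active copy of H19, Igf2r, Grb10, Cdkn1c and Meg3 is the maternal one, and that of Igf2, Dlk1, Plagl1, Peg3 and Mest the paternal one. H19, a long non-coding RNA, and Igf2, a growth factor, lie side by side and compete for the same enhancers, and the insulator protein CTCF binds between them on the unmethylated maternal copy. Dlk1 and Meg3 form a similar pair. Many of these genes are high in the fetus and fall after birth, and several restrain or promote growth through the IGF pathway or the cell cycle.

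Total counts ranged from 12898291 to 13433824 in 7 of the samples and reached 25132141 in hypoxia replicate 1. A level of 3 counts, taken as the smallest that can be shown, corresponded to between 0.125 and 0.241 CPM (counts scaled to a common library size with TMM factors), which covers counting error only. Of the markers used at sorting, Ly6a (Sca-1) had 349 to 501 CPM and Pdgfra (CD140a) 150.5 to 227 CPM over the 8 samples. Blood cell markers were present too, since Ptprc (CD45) had 8.28 to 18.98 CPM and the 11 markers of the list summed to 511 to 1019 CPM in hypoxia and 614 to 1154 CPM in normoxia, with Cd3e at 0 counts in every sample. Most of the sum was Lyz2, a lysozyme of macrophages, which rose by 0.56 on the log2 scale (limma-trend adjusted p = 0.022), whereas the median change of the 9 tested markers was -0.32 and Cd52 fell by 0.58 (limma-trend adjusted p = 0.048). These 2 were the only passing markers of the 9, or 22.2%, beside 34.6% of all tested genes. Blocked by replicate number, 1 blood marker was higher (Lyz2) and 6 were lower (limma-trend adjusted p under 0.05). With that block 46.0% of all tested genes passed in either direction. Among the 6 were Csf1r at -0.59 and Fcer1g at -0.56, the same direction as H19. The endothelial list summed to at most 3.44 CPM and the erythroid list to at most 0.231 CPM, with 3 of 8 and 5 of 7 genes at 0 throughout. In bulk samples, fewer cells of a type and less RNA per cell cannot be told apart.

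H19 carries a microRNA inside its exon and Igf2 carries one inside an intron, and these are shown because both hosts were lower in normoxia. The mature sequences are those of RefSeq on GRCm38, with the seed (bases 2 to 8), the stretch that pairs with target mRNAs, in capitals. All 4 seeds differ.
miR-675-5p, in H19, chr7:142577112-142577133, minus strand: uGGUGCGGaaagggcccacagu
miR-675-3p, in H19, chr7:142577078-142577099, minus strand: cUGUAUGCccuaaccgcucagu
miR-483-5p, in Igf2, chr7:142654968-142654989, minus strand: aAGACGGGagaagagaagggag
miR-483-3p, in Igf2, chr7:142654932-142654952, minus strand: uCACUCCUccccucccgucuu
The libraries measured long RNA, and the genes Mir675 and Mir483 were listed at 0 counts in all 8 samples, as were Mir335 in an intron of Mest and Mir770 in an exon of Meg3. The 84 bases of the miR-675 hairpin lie wholly within H19, so reads there could belong to either gene, and how such reads were assigned is not stated.

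It was first examined which of the 10 genes differed between the oxygen levels. H19, Dlk1, Igf2 and Cdkn1c were lower in normoxia and passed the threshold of the fit over all genes (limma-trend adjusted p under 0.05). None was higher, and 6 did not pass. Over all 14369 tested genes 34.6% passed in either direction and 16.5% passed as lower in normoxia. All tested genes split into 2592 higher and 2378 lower, and without normalization factors into 3611 and 1575. The median log2 change (normoxia minus hypoxia) of the 10 genes was -0.14, beside 0.0049 over all tested genes. The values of the groups did not overlap for 2 of the 10 genes, H19 and Igf2, against 32.6% of tested genes.

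**Figure D1:**
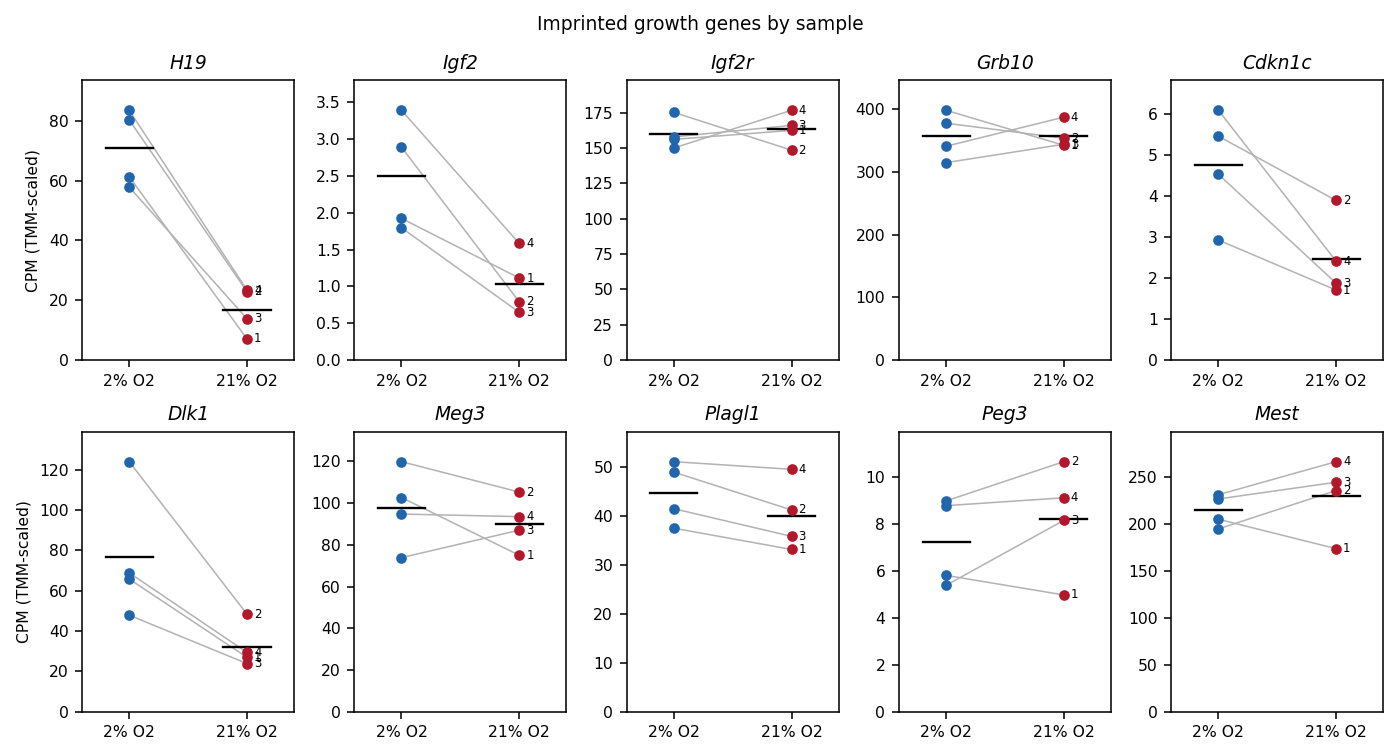
CPM (TMM-scaled, linear axis from 0) of each gene in each sample, with 2% oxygen in blue and 21% oxygen in red. Grey lines join samples with the same number, printed at the right, and black bars are group means of 4 samples. All 4 lines of H19, Igf2, Cdkn1c, Dlk1 and Plagl1 go down, whereas those of the other genes go both ways.

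H19 (ENSMUSG00000000031, chromosome 7, 142575529 to 142578143, minus strand, GRCm38) had the largest difference of the group. Its level was 61.3, 80.3, 57.9 and 83.5 CPM in hypoxia replicates 1 to 4, and 7.13, 22.9, 13.9 and 23.4 CPM in normoxia replicates 1 to 4. Every normoxia sample thus lay below every hypoxia sample, and replicates 1 and 3 were the lower samples in both groups. The means were 70.8 ± 13.04 and 16.8 ± 7.82 CPM (SD, n = 4 each), a ratio of hypoxia to normoxia of 4.20. The log2 change was -2.18 (standard error 0.30), the rank 7 among the falls of all 14369 tested genes. Within pairs of the same number, hypoxia exceeded normoxia 8.60, 3.51, 4.17 and 3.56 times. Pair 1 had the largest ratio, and its normoxia library had 96 counts, the fewest of the 8.

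Igf2 (ENSMUSG00000048583, chromosome 7, 142650766 to 142666816), which encodes the fetal growth factor IGF2, was far less abundant. It had 46, 36, 23 and 44 counts in the hypoxia samples and 15, 11, 9 and 21 counts in the normoxia samples. In CPM these were 1.92, 2.89, 1.80 and 3.39 in hypoxia against 1.11, 0.792, 0.650 and 1.58 in normoxia, again with no overlap. The log2 change was -1.14 (standard error 0.28), and the level was lower in normoxia in 4 of 4 pairs. Of the exon bases of Igf2, 62.8% are also exons of Gm49394 on the same strand, which had 0 counts in every sample. How reads falling in both genes were counted is not stated, so the level of Igf2 is uncertain. Igf2os, its antisense RNA, had 0 to 3 counts.

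Cdkn1c, which encodes the cyclin-dependent kinase inhibitor p57 (ENSMUSG00000037664, chromosome 7, 143458339 to 143461050), had 2.93, 5.46, 4.53 and 6.09 CPM in hypoxia. In normoxia it had 1.71, 3.89, 1.88 and 2.41 CPM. The groups overlapped, since hypoxia replicate 1 lay below normoxia replicate 2. The log2 change was -0.91 (standard error 0.27), from 23 to 79 counts per sample, and 4 of 4 pairs were lower in normoxia. Its place past the threshold depended on the fit. Without the block it was lost with limma-voom (-0.85), when corrected for GC content and length (-0.68), or without hypoxia replicate 2 (-0.83), hypoxia replicate 4 (-0.78), normoxia replicate 1 (-0.78) or normoxia replicate 3 (-0.82). Blocked by replicate number, Cdkn1c passed both with and without the GC and length correction, with a standard error of 0.17 and 0.18. On the opposite strand Gm44732, with 0 counts in every sample, covers 30.7% of its exon bases.

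Dlk1 (ENSMUSG00000040856, chromosome 12, 109452823 to 109463336) encodes a transmembrane protein of the Notch ligand type, also known as preadipocyte factor 1, which holds back fat cell differentiation. It had 65.7, 123.9, 47.8 and 68.8 CPM in hypoxia and 26.9, 48.3, 23.8 and 29.3 CPM in normoxia. The groups overlapped narrowly, and replicate 2 was the highest and replicate 3 the lowest sample in both. Within pairs the difference varied little, with hypoxia 2.44, 2.56, 2.01 and 2.35 times as high as normoxia. On the log2 scale Dlk1 changed by -1.22, and the standard error was 0.26, or 0.067 when blocked by replicate number.

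Meg3 (ENSMUSG00000021268, chromosome 12, 109541001 to 109571726), a long non-coding RNA read from the maternal copy of the same domain, was at 97.8 ± 19.1 CPM in hypoxia and 90.2 ± 12.7 CPM in normoxia (SD, n = 4 each). The change of Meg3 was -0.11 on the log2 scale (95% interval -0.40 to 0.19), and pair 3 went up while the other pairs went down. The log2 ratio of Dlk1 to Meg3 within each sample was -0.64, 0.047, -0.63 and -0.46 in hypoxia against -1.47, -1.12, -1.86 and -1.67 in normoxia. The groups were thus apart on this ratio although they overlapped for Dlk1 alone. They were also apart on the ratio of Igf2 to Igf2r, and narrowly on that of H19 to Igf2 (at least 4.541 in hypoxia and at most 4.533 in normoxia).

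Of the genes that act on IGF signalling, Igf2r and Grb10 were close to level. Igf2r, which encodes the receptor that carries IGF2 to lysosomes for breakdown (ENSMUSG00000023830, chromosome 17, 12682406 to 12769664), had 150.0 to 175 CPM in hypoxia and 148.5 to 177 CPM in normoxia. Its log2 change was 0.032 with a 95% interval of -0.12 to 0.18. Grb10, an adaptor protein that restrains the insulin and IGF1 receptors (ENSMUSG00000020176, chromosome 11, 11930508 to 12038683), had 315.0 to 398 CPM in hypoxia and 343 to 387 CPM in normoxia, with a log2 change of -0.00023 and an interval of -0.17 to 0.17. The sign of both changes depended on the sample left out, and that of Grb10 also on the scaling (0.088 without normalization factors).

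The zinc finger proteins and Mest did not pass without the block. Plagl1, a zinc finger factor known to regulate other imprinted genes (ENSMUSG00000019817, chromosome 10, 13060504 to 13131694), had 37.5, 49.0, 41.5 and 51.2 CPM in hypoxia and 33.2, 41.3, 35.9 and 49.6 CPM in normoxia. Its log2 change was -0.17 with an interval of -0.45 to 0.11. It was lower in normoxia in 4 of 4 pairs, as were 26.8% of tested genes. With the replicate number as a block Plagl1 passed, as did 46.0% of tested genes in either direction, and its standard error was 0.065. Peg3, another zinc finger protein (ENSMUSG00000002265, chromosome 7, 6703892 to 6730431), had 5.39 to 8.99 CPM in hypoxia and 4.97 to 10.7 CPM in normoxia, with a change of 0.16 and a wide interval of -0.34 to 0.67. Mest, an enzyme-like protein linked to the growth of fat tissue (ENSMUSG00000051855, chromosome 6, 30723547 to 30748465), had 194 to 231 CPM in hypoxia and 173 to 266 CPM in normoxia, with a change of 0.087 and an interval of -0.16 to 0.33.

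**Figure D2:**
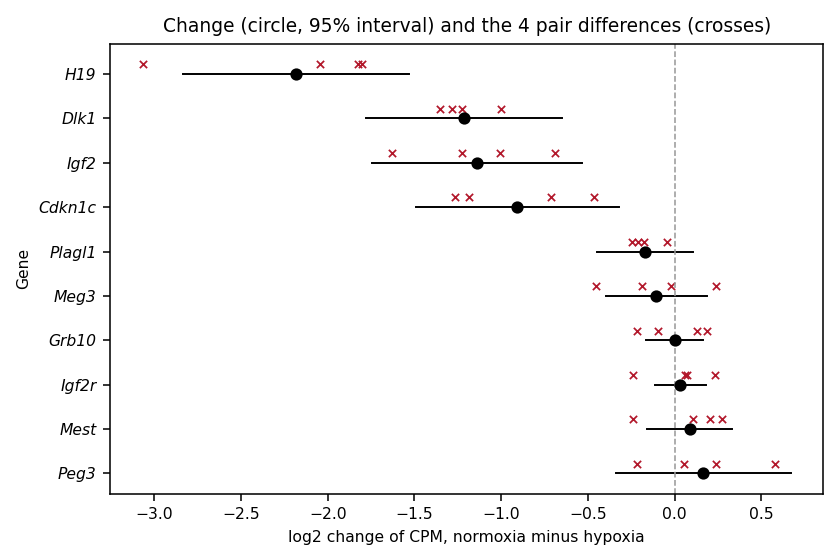
Log2 change of CPM (normoxia minus hypoxia) for each gene, as the estimate of the fit over all genes (circle, 4 samples a group) with its 95% interval (line), and the differences of the 4 pairs of same-numbered samples (red crosses). The intervals of H19, Dlk1, Igf2 and Cdkn1c lie below 0 and those of the other 6 genes span it.

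The 4 passing genes were also those with the highest GC content. The longest transcripts of Cdkn1c, Igf2, H19 and Dlk1 held 53.6% to 59.4% G and C, and those of the other 6 genes 46.4% to 51.2%. GC content and log2 change had a Spearman's rho of -0.39 across 14353 genes, as a description, since genes are no independent replicates. With a correction that removes the trends with GC content and transcript length from each sample, the changes were -2.04 for H19, -1.15 for Dlk1, -1.03 for Igf2 and -0.68 for Cdkn1c, and the first 3 passed.

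Levels between genes were compared per kilobase of merged exons. In hypoxia the order from high to low was Mest (54.3 CPM per kb), Grb10 (39.4), H19 (28.8), Igf2r (17.2), Dlk1 (13.5), Plagl1 (5.73), Meg3 (5.41), Cdkn1c (2.33), Peg3 (0.544) and Igf2 (0.437). The ranges over the 4 samples overlapped between Igf2r and Dlk1, between Plagl1 and Meg3 and between Peg3 and Igf2, and not between the other neighbours. In normoxia H19 stood at 6.84 CPM per kb, below Igf2r (17.6), and its range overlapped that of Dlk1 (5.67), which in turn overlapped Plagl1 (5.11) and that Meg3 (4.99). H19 thus went from a level between Grb10 and Igf2r to one whose range took in those of Dlk1, Plagl1 and Meg3. Igf2 had the lowest mean of the 10 in both groups, with a range that overlapped Peg3 in hypoxia and with the uncertainty from the exons it shares with Gm49394. Mest shares 23.1% of its exon bases with Copg2 on the opposite strand. Whether counting used the strand is not stated, so the level of Mest is uncertain too.

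**Figure D3:**
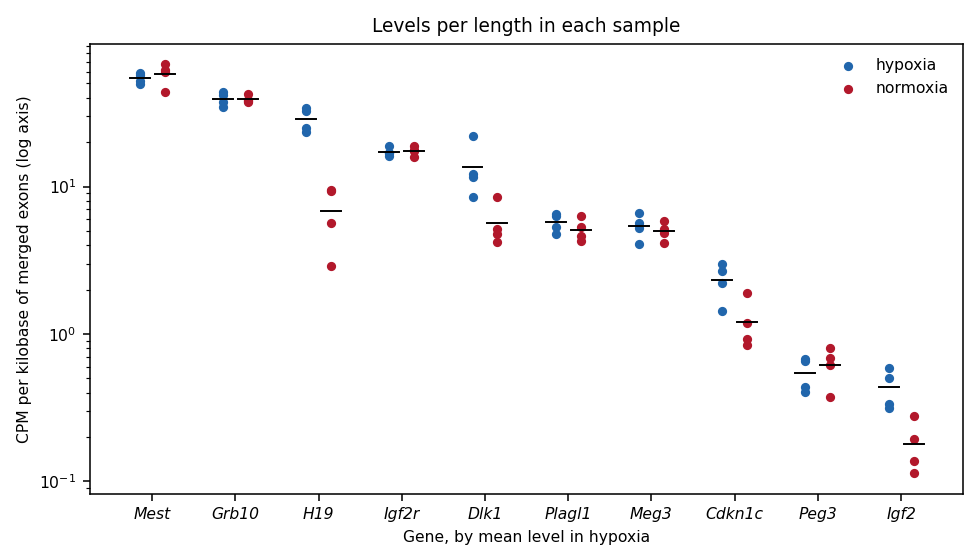
CPM per kilobase of merged exons (log axis) for each gene in each of the 4 hypoxia (blue) and 4 normoxia (red) samples, ordered by the mean in hypoxia, with black bars for group means. H19 drops from 28.8 to 6.84 CPM per kb, where its range takes in those of Dlk1, Plagl1 and Meg3, whereas Mest and Grb10 stay at the top in both groups.

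The genes around H19 were taken from a list of 28 imprinted and neighbouring genes of distal chromosome 7. Of these 19 were tested, and 9 were lower and 2 higher in normoxia (limma-trend adjusted p under 0.05), which without H19, Igf2 and Cdkn1c is 6 lower and 2 higher of 16. These are 57.9% of the 19 and 50% of the 16. Over all tested genes 34.6% passed in either direction and 16.5% as lower. With the GC and length correction 6 of the 19 were lower and 2 higher. On the centromeric side of H19 the nearest tested gene of the list was Mrpl23, which encodes a mitochondrial ribosomal protein. It fell from 21.13 ± 2.93 to 13.62 ± 1.1 CPM (SD, n = 4 each), with a log2 change of -0.62 (limma-trend adjusted p = 0.0013). Further away, Dhcr7, the enzyme of the last step of cholesterol synthesis, fell by 0.75 on the log2 scale (limma-trend adjusted p = 0.00013). Tspan32, a tetraspanin, had the largest fall apart from H19 and Igf2, at -1.097 (limma-trend adjusted p = 0.024), from 14 to 27 counts in hypoxia and 4 to 14 in normoxia. Mrpl23, Dhcr7 and Tspan32 are named after their values were seen. Nap1l4, a histone chaperone, and Cars, the cysteinyl-tRNA synthetase, rose by 0.18 and 0.35 (limma-trend adjusted p = 0.036 and 0.014). The imprinted antisense RNA Kcnq1ot1, which silences the paternal copy of its domain, had 11 to 32 counts and a change of -0.072 that was not past the threshold (limma-trend adjusted p = 0.84). Ins2, Th, Phlda2 and Nctc1 had 0 counts in every sample.

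The domain of Dlk1 and Meg3 on distal chromosome 12 was listed with 10 genes, all of them tested. Apart from Dlk1, Dio3 and Dio3os passed, in opposite directions. With Dlk1 this is 30% of the 10, and 25% of the 8 without Dlk1 and Meg3, beside 34.6% of all tested genes. Dio3, the deiodinase that inactivates thyroid hormone, had 273, 173, 192 and 225 CPM in hypoxia and 324, 319, 279 and 347 CPM in normoxia. All normoxia samples lay above all hypoxia samples, by 0.57 on the log2 scale (limma-trend adjusted p = 0.0033). Dio3os, a non-coding RNA of the opposite strand, fell by 0.42 (limma-trend adjusted p = 0.018). Dlk1 alone passed as lower with the GC and length correction without the block, and without normalization factors, so the call of Dio3os was lost. That call was also lost without hypoxia replicate 4, without normoxia replicate 3 and without pair 1. Rian and Mirg, which like Meg3 are long RNAs of the maternal copy, changed by 0.21 and 0.40 and did not pass (limma-trend adjusted p = 0.055 and 0.12). Blocked by replicate number, Rian passed (limma-trend adjusted p = 0.0011) and Mirg did not (0.053). Without hypoxia replicate 1, 5 genes of the domain passed, 3 higher and 2 lower.

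**Figure D4:**
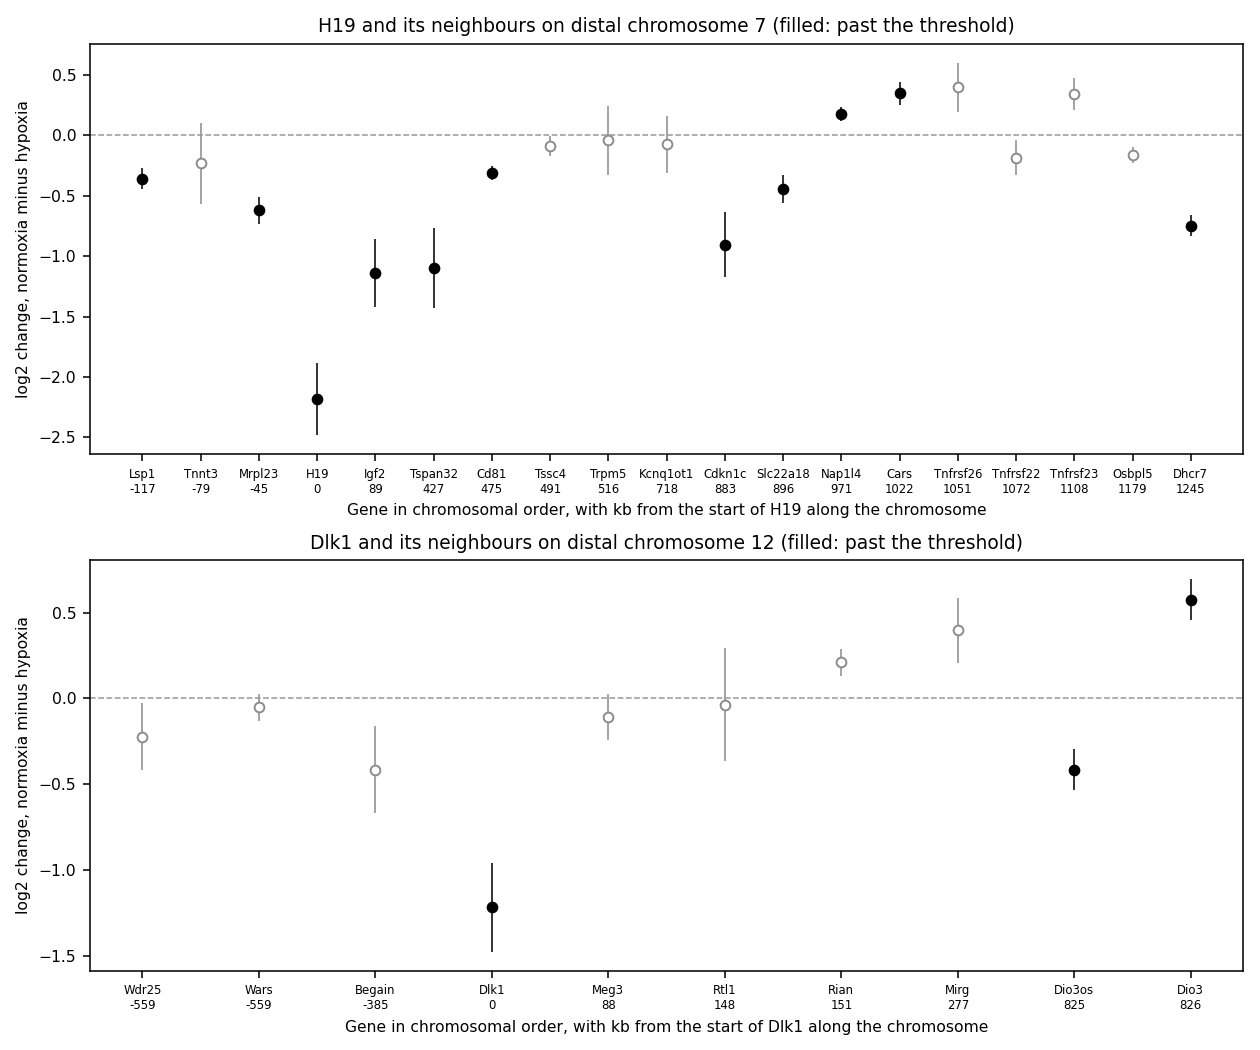
Log2 change (normoxia minus hypoxia, with standard error, 4 samples a group) of the tested genes of the H19 and Kcnq1 domain (top) and the Dlk1 and Meg3 domain (bottom), in chromosomal order with the distance in kb from the start of H19 or Dlk1 along the chromosome. Filled circles passed the threshold, and H19 at -2.18 and Dlk1 at -1.22 are the lowest points of their panels.

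The domains of the other genes held few tested neighbours. Of the listed neighbours, 2 were tested around Igf2r and 4 around Grb10, none past the threshold without the block, and 0 of the 7 around Peg3 had enough counts. Around Mest 1 of 3 tested neighbours passed, and around Plagl1 also 1 of 3. Each is 33.3%, beside 34.6% of all tested genes. Next to Mest, Copg2, which encodes a coat protein of transport vesicles, rose by 0.19 (limma-trend adjusted p = 0.041). The call was lost without any 1 of the 8 samples, with DESeq2, with no filter and with the GC and length correction, and 17.8% of the exon bases of Copg2 are shared with Mest on the opposite strand. Next to Plagl1, Ltv1, a factor of small ribosomal subunit assembly, rose by 0.43 (limma-trend adjusted p = 0.015), which was lost without hypoxia replicate 3, without normoxia replicate 3 and with the GC and length correction.

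Among 46 other genes reported as imprinted in some mouse tissue, 37 were tested, and 11 were higher and 6 lower in normoxia (limma-trend adjusted p under 0.05). Their share of 45.9% stood beside the 34.6% of all tested genes, and their median log2 change was 0.12. Without normalization factors 15 were higher and 4 lower. The largest rises were those of Ano1, a chloride channel, at 1.56 (standard error 0.30), and Htr2a, a serotonin receptor, at 1.36 (standard error 0.28, limma-trend adjusted p = 0.0020 and 0.0033). Slc38a4, an amino acid transporter of the placenta, fell from 1.60 ± 0.268 to 0.532 ± 0.265 CPM (SD, n = 4 each, limma-trend adjusted p = 0.0037). Smoc1, a matrix protein, fell by 0.53 (limma-trend adjusted p = 0.025). Both directions thus occurred among imprinted genes outside the 10.

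The partners of IGF2 were compared next. In a list of 21 genes of the IGF2 axis, 5 were higher and 4 lower in normoxia (limma-trend adjusted p under 0.05). Without Igf2, Igf2r and Grb10 it was 5 higher and 3 lower of 18, or 44.4%, beside 34.6% of all tested genes. The balance depended on the fit, since the 21 genes split into 6 higher and 7 lower when blocked by replicate number, and into 6 higher and 2 lower without normalization factors. With the block 46.0% of all tested genes passed. Igf1r, the receptor through which IGF2 signals, had 153 to 191 CPM in hypoxia and 145 to 167 CPM in normoxia and was not past the threshold (limma-trend adjusted p = 0.30). Igfbp4, a binding protein that withholds IGFs from their receptor, fell from 5157 ± 204 to 3031 ± 211 CPM (SD, n = 4 each), with a log2 change of -0.77 (limma-trend adjusted p = 9.9e-05). Stc1, an inhibitor of the protease that cuts IGFBP4, rose by 0.97, and Igfbp7, a related binding protein, by 0.48 (limma-trend adjusted p = 0.0013 and 0.00071).

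Genes that act at imprinting control regions were taken from a list of 25, of which 23 were tested. In normoxia 10 were higher and 3 lower (limma-trend adjusted p under 0.05), or 56.5%, beside 34.6% of all tested genes. Their median log2 change was 0.22. Ctcf, the insulator protein, rose by 0.22 from 42.1 ± 1.03 to 49.1 ± 1.01 CPM (SD, n = 4 each, limma-trend adjusted p = 0.010). Zfp445, a zinc finger protein that protects imprints, rose by 0.65 and Arid4b, a chromatin regulator, by 0.84 (limma-trend adjusted p = 0.00012 and 0.00013). Tet1 and Tet3, oxygen-using enzymes that oxidize methylated cytosine, fell by 0.94 and 0.37 (limma-trend adjusted p = 0.0051 and 0.043). Dnmt1, which copies DNA methylation at cell division, had a change of 0.011 (limma-trend adjusted p = 0.95). With the GC and length correction the count fell to 5 higher and 1 lower.

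Since H19 can bind the microRNA let-7, 17 mRNAs known as let-7 targets were listed. Of 14 tested, 3 were higher and 0 lower in normoxia (limma-trend adjusted p under 0.05), or 21.4%. This is below the 34.6% of all tested genes. Hmga2, a chromatin protein of growing cells, rose by 0.82, Igf2bp2, which binds the Igf2 mRNA, by 0.40, and Dicer1, the enzyme that cuts microRNA precursors, by 0.29 (limma-trend adjusted p = 0.0015, 0.015 and 0.012). With the GC and length correction 3 were higher and 2 lower.

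The replicates of a group varied together for several of the 10 genes. The deviation of H19 from its group mean had a Pearson's r of 0.91 with that of Peg3, 0.82 with Plagl1, 0.77 with Mest and 0.71 with Cdkn1c over the 8 samples, and 0.28 with its neighbour Igf2. Dlk1 and Meg3 had an r of 0.87. These values are a description over 8 samples that share group means and libraries. Of 9394 other genes with a mean log2 CPM of at least 3, 44 had an r above 0.9 with the deviation of H19. Normoxia replicate 1 had the lowest deviation of H19 (-1.07), Peg3 (-0.65) and Mest (-0.39) among all samples, and r without this sample was not computed.

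**Figure D5:**
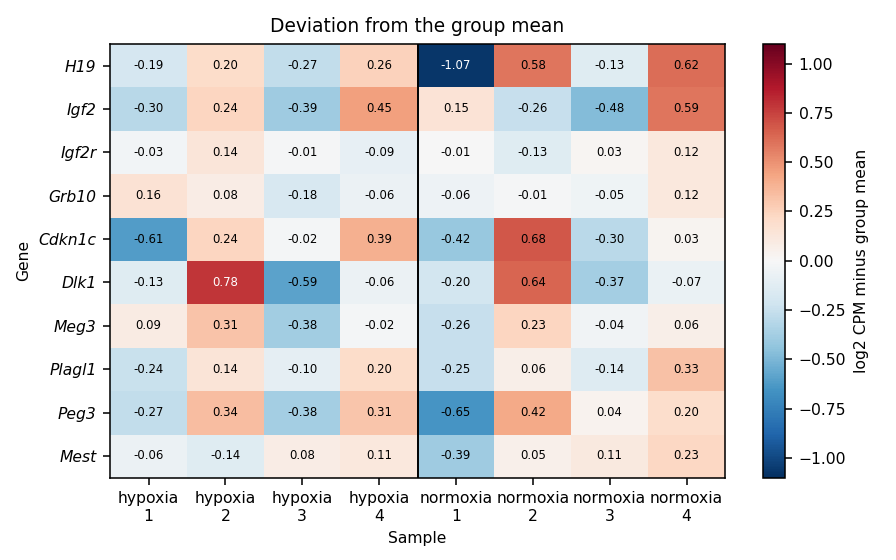
Deviation of log2 CPM from the mean of its own group for each gene (rows) in each sample (columns, 4 hypoxia then 4 normoxia), with higher values in red and lower in blue. Replicate 2 is high for Dlk1 in both groups (0.78 and 0.64), and normoxia replicate 1 is low for H19 (-1.07) and Peg3 (-0.65).

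Of 9394 other genes with a mean log2 CPM of at least 3, those most like H19 over the 8 samples were Six5 (Pearson's r = 0.99), Aoc3 (0.99), Mid1 (0.99), Ndrg3 (0.99) and Zfp865 (0.98). Six5 is a homeobox factor, Aoc3 an amine oxidase, Mid1 a ubiquitin ligase, and Zfp865 a zinc finger protein. Their log2 changes ranged from -1.51 for Aoc3 to -0.26 for Zfp865. An r above 0.95 was reached by 96 genes, and both oxygen groups enter this value. By deviations from the group means alone, the nearest were Zbtb45 (0.99), Zfp865 (0.98), Rcn3 (0.98), Mid1 (0.98) and Six5 (0.97), of which Rcn3 changed by 0.22, the opposite way from H19.

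Markers of skeletal muscle, a tissue rich in H19, moved in the same direction as H19. Of the 8 markers 2 were tested and both passed as lower. All 8 together summed to 24.8 to 39.7 CPM in hypoxia and 8.79 to 14.04 CPM in normoxia, and nearly all of this was Acta1, an actin, which fell by 1.33 on the log2 scale (limma-trend adjusted p = 0.00022). The defining factors Myf5, Pax7 and Myog had 0 counts in every sample, and Myod1 had 1 count in 1 sample. The part of these markers, or of the blood cells, in the change of H19 was not tested.

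Promoter windows, from 250 bases before to 50 bases after a RefSeq gene start on GRCm38, were given for 8 of the 10 genes. H19 and Cdkn1c, which both passed the threshold, had no window, so the search leaves them out. They were searched on both strands for the core element of the hypoxia-inducible factors, spelled ACGTG or GCGTG, where a palindromic stretch counts once on each strand. Of all 32851 windows 43.8% hold a match, and of the 13459 windows of tested genes 60.6%. Matches were 2 for Dlk1, 6 for Igf2r, 4 for Plagl1, 1 for Peg3, 2 for Grb10 (in 1 of 2 windows), 1 for Igf2 (in 1 of 4 windows) and 0 for Meg3 and Mest. The windows of Dlk1, of which the level moved, and of Igf2r, of which it did not pass, are shown to set the letters beside the values, with matches in capitals.
Dlk1, chr12:109452573-109452872, plus strand: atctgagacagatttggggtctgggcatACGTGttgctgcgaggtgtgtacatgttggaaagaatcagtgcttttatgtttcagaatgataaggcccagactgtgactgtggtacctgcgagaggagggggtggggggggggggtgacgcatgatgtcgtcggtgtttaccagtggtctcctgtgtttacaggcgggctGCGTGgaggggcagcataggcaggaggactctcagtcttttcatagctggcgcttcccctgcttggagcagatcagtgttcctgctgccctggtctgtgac
Igf2r, chr17:12769657-12769956, minus strand: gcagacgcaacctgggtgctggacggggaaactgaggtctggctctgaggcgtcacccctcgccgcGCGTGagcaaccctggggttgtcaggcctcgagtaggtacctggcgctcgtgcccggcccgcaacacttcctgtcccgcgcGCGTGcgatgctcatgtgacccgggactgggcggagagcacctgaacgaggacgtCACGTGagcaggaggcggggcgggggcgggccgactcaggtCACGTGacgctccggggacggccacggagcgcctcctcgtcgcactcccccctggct
A match is a stretch of letters and no measure of binding. Igf2r had a mean log2 change of 0.032 and pair differences from -0.24 to 0.24, and Dlk1 had a mean change of -1.22. The 2 windows were picked by these changes, and whether matches go with changes was not tested.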

How the data were processed

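RNA of 8 samples was sequenced as single-end reads. The authors mapped the reads to mm10 with STAR inside the zUMIs pipeline, assigned them to Ensembl genes with featureCounts, and deposited whole-number counts per gene, not normalized. Strand and ambiguity settings are not given in the sources used here. Symbols, positions and exon lengths came from GENCODE M21 on the same assembly (53360 identifiers matched). Genes were kept by filterByExpr with a minimum count of 5, as in the study. Log2 CPM (TMM factors, prior count 3) were compared with limma-trend (limma 3.58.1, edgeR 4.0.16, R 4.3.3), Benjamini-Hochberg adjusted over all tested genes, threshold 0.05. A log2 change on this scale understates that of genes with few counts. No sample was left out.

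Samples with the same number deviated together, with correlations across genes of 0.47, 0.28, 0.25 and 0.17 for pairs 1 to 4. The study reports 4 independent biological replicates and divided the sorted cells between the oxygen levels, so the numbers were taken as pairs. The sample titles and the methods do not state that samples with the same number share a sort. Correlations between samples of unlike number are not given here. Blocking by replicate number was an alternative. Others were the edgeR quasi-likelihood test, DESeq2 1.42.0, limma-voom, other scalings, no filter, another prior count, a spline correction for GC content and transcript length, and leaving out each sample. The methods were tested on simulated counts in which 200 genes changed by 1 on the log2 scale. These held no pair effect and no trend with GC content, so they cannot judge the block or the GC and length correction for these data.

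The 10 genes and all lists were chosen with earlier results of these data known. Named genes are the 10, all passing genes of a list where at most 4 passed or otherwise its 2 largest rises and falls, marker genes, microRNA host genes, and the genes most like H19. Any other was named after its values were seen.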

Additional observations from a re-analysis of the deposited data

Results flagged for a closer look

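The log2 CPM of the 10 genes, the total counts and the summed CPM of MSC and of blood cell markers were searched in each group, 26 sets of 4 values in all, for a sample set apart by Dixon's criterion, which chance meets in about 5% of sets. It was met by the total count of hypoxia replicate 1 and by no other set. That count was 25130000 to 4 digits, against 12930000 to 13220000 in the other hypoxia samples. Without this library the log2 change of H19 was -2.25.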

How the results depend on the processing

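The 23 values and counts were recomputed under 19 alternatives. H19, Dlk1 and Igf2 kept their direction and passed in all of them, with changes of -2.40 to -1.84, -1.44 to -0.95 and -1.35 to -0.99. Between 3 and 5 of the 10 genes passed. The call of Cdkn1c was lost with limma-voom (-0.85) and with the GC and length correction (-0.68), and ranged from -1.15 to -0.78 over the fits that left out 1 sample. Plagl1 passed with the replicate block (-0.17, and -0.29 with the GC and length correction as well), and the block alone changed no other call of the 10. With the GC and length correction, adding the block brought Cdkn1c back past the threshold (-0.68), and 5 of the 10 passed in place of 3. Changes near 0 turned sign, with Grb10 at 0.00057 with limma-voom, 0.088 without normalization factors and 0.065 without pair 1 (an alternative added after seeing the data), and between -0.060 and 0.054 with 1 sample left out. Igf2r ranged from -0.017 to 0.077 with 1 sample left out, and Meg3 was at 0.0030 without pair 1.

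Among list counts, leaving out 1 sample gave 2 to 5 genes of the Dlk1 domain, 0 of the Mest domain and 0 to 1 of the Plagl1 domain. The Mest domain also had 0 with the GC and length correction, alone or with the block, with DESeq2 and with no filter. The Plagl1 domain had 0 with the GC and length correction, 2 with the block and 3 with both, and the Grb10 domain had 1 with both. Imprint maintenance genes fell to 6 with the GC and length correction. Let-7 regulated mRNAs had 5 with that correction, 7 with the block as well and 5 without normalization factors. That scaling also moved the split over all genes from 2592 higher and 2378 lower to 3611 and 1575. Without pair 1, 4978 genes passed. Genes with few counts, such as Igf2, are limited by depth.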
